A study of Homo sapiens with 24 samples.

Results

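Transcript levels of 10 transcription factor genes of the myeloid lineage were examined in THP-1, a cell line from a human acute monocytic leukaemia. The genes were taken by name, namely SPI1, CEBPA, CEBPB, CEBPD, CEBPE, IRF8, GFI1, MYB, RUNX1 and KLF4, and all 10 of them were measured, out of 18417 genes in all. The choice was made with earlier results of these data known. Each had 1 probe set of its own on the array and none shared with another gene. The cells carried an integrated lentivirus from which doxycycline (DOX) induces FLAG-tagged NOD1, a sensor of bacterial peptidoglycan, or NLRP4, another NOD-like receptor, or they carried the vector alone. Each construct is represented by 1 stable line, selected with G418 after infection at low copy, so the construct and any other property of that line cannot be told apart. The 6 groups were the NOD1 line with DOX and without DOX, the NLRP4 line with DOX and without DOX, and the vector line with DOX and without DOX. Each group had 4 arrays, and DOX was given at 1 µg/ml for 6 h.

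Myeloid transcription factors act as a network. PU.1 (encoded by SPI1) and the C/EBP proteins bind enhancers of nearly all myeloid genes, PU.1 acts with IRF8 on the monocyte side, C/EBPε and GFI1 act on the granulocyte side, and MYB and RUNX1 sustain progenitors. KLF4 is a zinc finger factor that promotes monocyte differentiation. THP-1 cells carry a leukaemic fusion of KMT2A.

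The groups behaved as labelled for the introduced genes. NOD1 averaged 12.75 ± 0.18 on the log2 scale in the NOD1 line with DOX and 8.74 ± 0.19 without DOX (SD, n = 4 each). NLRP4 averaged 11.93 ± 0.26 in the NLRP4 line with DOX and 8.09 ± 0.43 without DOX (SD, n = 4 each). The NOD1 line without DOX was therefore tested as a line in its own right, with 1.32-fold the NOD1 signal of the uninduced vector line (limma adjusted p = 0.0299). The uninduced NLRP4 line had 2.25-fold the NLRP4 signal of the uninduced vector line (log2 1.17, SE 0.188, adjusted p = 0.0405). Of the 6 monocytic markers measured, group means ran from 13.35 to 13.85 for LYZ, the lysozyme gene, from 12.70 to 13.29 for FCER1G and from 11.01 to 11.53 for TYROBP, both immune receptor adaptors. Those of AZU1, a granule protein gene, ran from 9.23 to 10.10, those of CSF1R, the macrophage growth factor receptor gene, from 8.91 to 9.62 and those of MPO, the myeloperoxidase gene, from 7.87 to 8.09. Group means of 12 markers of other lineages, part of a longer list given at the end, ran from 6.39 for the B cell gene MS4A1 to 10.28 for NKG7, a cytotoxic granule gene, with the T cell gene CD3E from 7.07 to 7.34 and the collagen gene COL1A1 from 9.30 to 9.50. The ranges of the lists overlap, and levels of different probe sets are not comparable, so these values do not order the genes by abundance. The markers CD33 and FCGR1A were not analysed here. No background level was measured, so no gene is called absent. Correlation across genes between arrays of 1 group was 0.982 to 0.993. In bulk RNA, fewer cells of a type and less RNA per cell cannot be told apart.

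The main pattern was between lines. SPI1, CEBPD and GFI1 were higher in the NOD1 line than in the vector line and than in the NLRP4 line, both with and without DOX, and no member was called between the NLRP4 and vector lines or between DOX and no DOX. A gene was called at a limma adjusted p under 0.05 over all 18417 genes. In each of the 4 comparisons of the NOD1 line with another line, 4 of the 10 members were higher and 0 lower. Members that were not called but had an unadjusted p under 0.05 were IRF8 and KLF4, higher, against the vector line without DOX, and 0 against the vector line with DOX. In the comparisons with the NLRP4 line they were IRF8, higher, and MYB, lower, without DOX, and KLF4, higher, and MYB, lower, with DOX. That p was reached by 34.2% of all genes against the vector line without DOX and 34.7% with DOX, and by 35.8% against the NLRP4 line without DOX and 35.0% with DOX. The background of calls was high too. With DOX, 25.8% of all genes were called between the NOD1 and vector lines (13.6% higher) and 25.4% between the NOD1 and NLRP4 lines (13.4% higher). Without DOX, 24.9% were called between the NOD1 and vector lines (13.0% higher) and 27.0% between the NOD1 and NLRP4 lines (14.1% higher). The median member stood at 0.19 in the NOD1 minus vector comparison with DOX and at 0.28 without DOX, against 0.02 and 0.03 for all genes. Within a DOX state the comparisons with the vector and NLRP4 lines share the 4 arrays of the NOD1 line. Comparisons with DOX share no arrays with those without DOX.

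**Figure D1:**
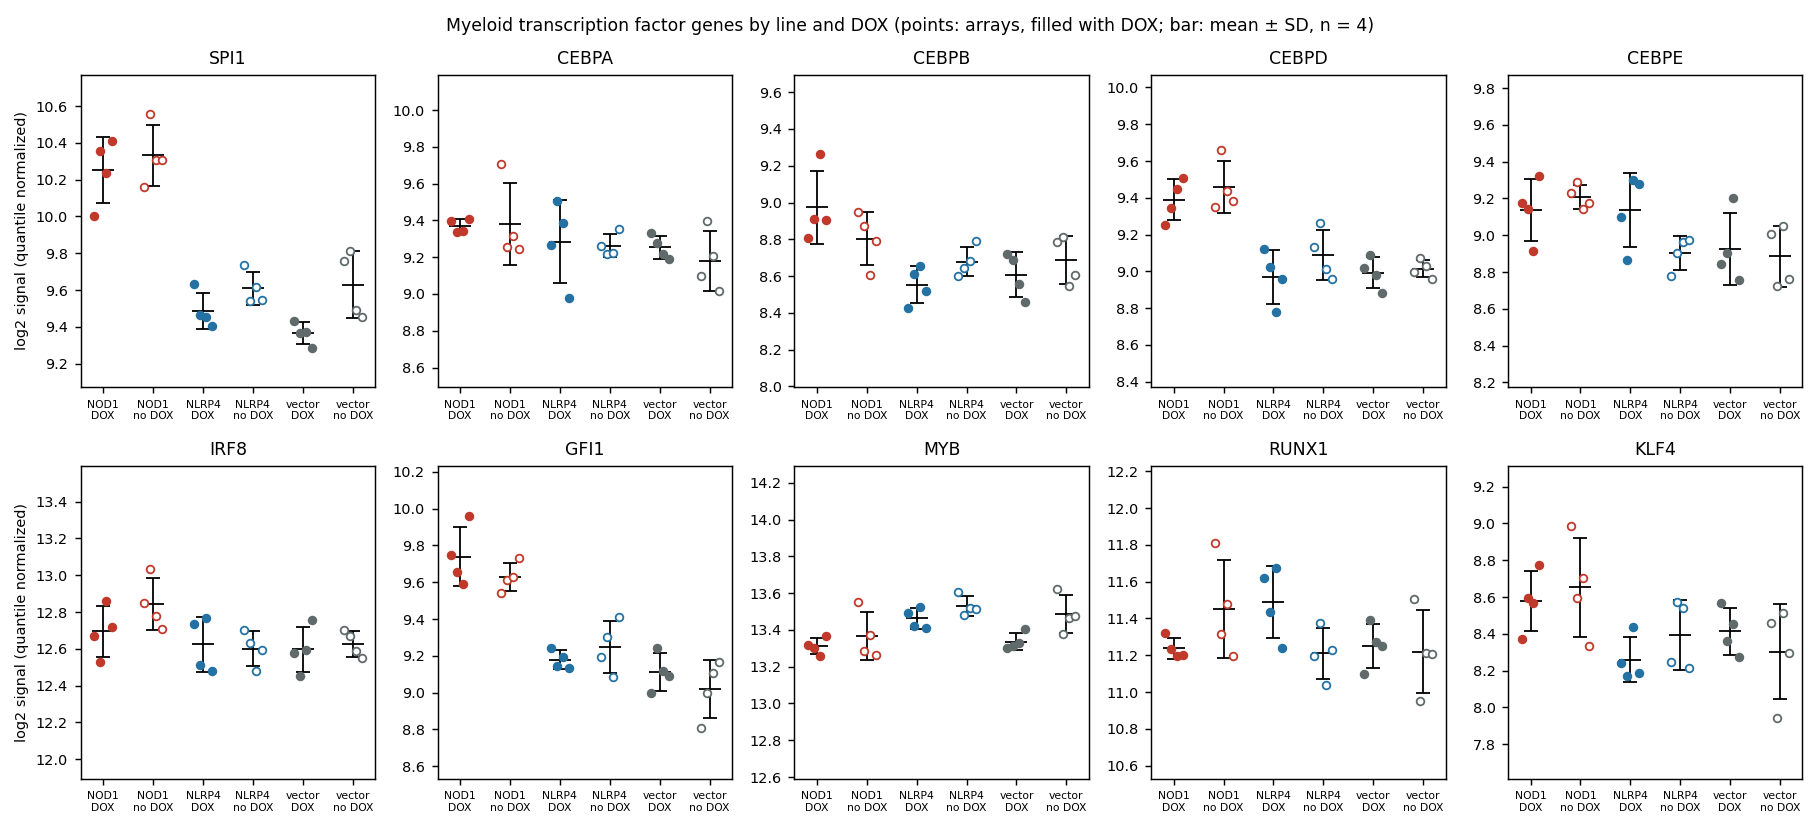
Quantile-normalized log2 signal of the 10 genes, 1 panel per gene, with 1 point per array, filled with DOX and open without, and the mean ± SD of each group of 4. All panels span the same log2 range, and the NOD1 line stands clear of both other lines for SPI1 and GFI1.

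SPI1 encodes PU.1, the ETS-family factor that directs cells to the myeloid lineage in proportion to its dose. Its log2 signals were 10.00, 10.36, 10.23 and 10.41 in the NOD1 line with DOX, against 9.43, 9.37, 9.37 and 9.29 in the vector line with DOX. Without DOX they were 10.16, 10.56, 10.31 and 10.30 in the NOD1 line, against 9.76, 9.81, 9.49 and 9.45 in the vector line. The 8 arrays of the NOD1 line thus lay above all 8 of the vector line, as 6.42% of all genes did. In the NLRP4 line SPI1 ranged from 9.40 to 9.73 over 8 arrays, and these too lay below every array of the NOD1 line, as for 6.20% of all genes. SPI1 was 1.85-fold higher in the NOD1 line than in the vector line with DOX (log2 0.89, SE 0.0998, limma adjusted p = 5.30e-07) and 1.63-fold higher without DOX (log2 0.70, SE 0.0998, adjusted p = 1.11e-05). Against the NLRP4 line the folds were 1.70 with DOX (adjusted p = 3.60e-06) and 1.65 without DOX (adjusted p = 6.25e-06). The highest group means, 10.25 with DOX and 10.33 without DOX in the NOD1 line, did not differ beyond their spread, and the means of the other 4 groups fell between 9.36 and 9.63. The lowest of these was the vector line with DOX, whose 4 arrays lay below the 4 without DOX, as happened for 1.52% of all genes; that difference of −0.26 (SE 0.0998) was not called (adjusted p = 0.999).

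GFI1 encodes a zinc finger repressor that favours the granulocyte over the monocyte fate and restrains the cell cycle of stem cells. Its signals were 9.75, 9.66, 9.59 and 9.96 in the NOD1 line with DOX, against 8.996, 9.24, 9.12 and 9.09 in the vector line with DOX. Without DOX they were 9.54, 9.61, 9.63 and 9.73 in the NOD1 line, against 8.81, 8.999, 9.11 and 9.17 in the vector line. No array of the NOD1 line overlapped with any of the vector line or of the NLRP4 line, where GFI1 ranged from 9.08 to 9.41. All 8 arrays of the NOD1 line lay above those of the vector line for 6.42% of all genes, and above those of the NLRP4 line for 6.20%. GFI1 was 1.54-fold higher in the NOD1 line than in the vector line with DOX (log2 0.63, SE 0.0914, adjusted p = 1.40e-05) and 1.52-fold higher without DOX (log2 0.61, SE 0.0914, adjusted p = 2.24e-05). Against the NLRP4 line the log2 differences were 0.56 with DOX (adjusted p = 5.90e-05) and 0.38 without DOX (adjusted p = 0.00263). The NLRP4 line without DOX stood between the others, at 0.23 above the vector line without DOX (SE 0.0914), and this was not called (adjusted p = 0.945).

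CEBPD encodes C/EBPδ, a C/EBP family member induced by cytokines and during granulocyte maturation. Its signals were 9.25, 9.35, 9.45 and 9.51 in the NOD1 line with DOX, against 9.02, 9.09, 8.98 and 8.88 in the vector line with DOX. Without DOX they were 9.35, 9.66, 9.44 and 9.38 in the NOD1 line, against 8.997, 9.07, 9.03 and 8.96 in the vector line. The NOD1 and vector lines did not overlap in either state, as 15.5% of all genes did not with DOX and 11.1% without DOX, in that direction. One array of the NLRP4 line without DOX, at 9.26, lay just above the lowest array of the NOD1 line, at 9.25 with DOX. These lines thus overlapped across DOX states. CEBPD was 1.32-fold higher in the NOD1 line than in the vector line with DOX (log2 0.40, SE 0.0884, adjusted p = 0.00140) and 1.36-fold higher without DOX (log2 0.44, SE 0.0884, adjusted p = 0.000519). Against the NLRP4 line the log2 differences were 0.42 with DOX (adjusted p = 0.000891) and 0.37 without DOX (adjusted p = 0.00263). In the values as deposited the first of these was 0.29 and was not called (adjusted p = 0.0592).

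CEBPB and CEBPE completed the members called in any comparison. CEBPB encodes C/EBPβ, a factor of macrophage activation and emergency granulopoiesis. Its signals were 8.81, 8.91, 9.27 and 8.91 in the NOD1 line with DOX, against 8.72, 8.69, 8.56 and 8.46 in the vector line with DOX. Without DOX they were 8.95, 8.87, 8.61 and 8.79 in the NOD1 line, against 8.78, 8.81, 8.54 and 8.61 in the vector line, and these groups overlapped. With DOX, CEBPB was 1.29-fold higher in the NOD1 line than in the vector line (log2 0.37, SE 0.0986, adjusted p = 0.00680) and 1.34-fold higher than in the NLRP4 line (log2 0.42, SE 0.0986, adjusted p = 0.00236). Before quantile normalization these were 0.33 and 0.23, and neither was called (adjusted p = 0.146 and 0.239). Without DOX the differences were 0.12 (adjusted p = 0.449) and 0.13 (adjusted p = 0.398). The DOX effect on CEBPB in the NOD1 line minus that in the vector line was 0.25 (95% interval −0.04 to 0.54, adjusted p = 1.000), and minus that in the NLRP4 line it was 0.29 (adjusted p = 0.614), so the lines were not shown to respond unequally to DOX.

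CEBPE encodes C/EBPε, the C/EBP factor of terminal granulocyte maturation. Without DOX its signals were 9.23, 9.29, 9.14 and 9.17 in the NOD1 line, against 9.01, 8.72, 9.05 and 8.76 in the vector line. The groups did not overlap, as 11.1% of all genes did not in that direction, and CEBPE was 1.25-fold higher in the NOD1 line (log2 0.32, SE 0.110, adjusted p = 0.0329). Against the uninduced NLRP4 line the difference was 0.30 (adjusted p = 0.0427). With DOX the differences were 0.21 (adjusted p = 0.178) and 0.00 (adjusted p = 0.991). The calls without DOX rested on a narrow margin: without the 4 arrays of lowest deposited median they were 0.24 and 0.23 (adjusted p = 0.209 and 0.220), and they were lost in 5 of 24 omissions of 1 array against the vector line and in 7 of 24 against the NLRP4 line. The arrays were vector_noDOX replicates 2 and 4, every NLRP4_noDOX replicate, and NOD1_noDOX replicates 1, 2 and 4, which ended the call in both comparisons.

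Promoter letters are printed for the members called higher whose sequence was at hand, GFI1, CEBPB and CEBPE, to show where letters recognised by the other members lie. The windows come from RefSeq on GRCh38.p14 and run from 250 bases before the gene's outermost start site to 50 bases after it, 5′ to 3′ on the gene's strand. RefSeq windows matched 8 of the 10 members. The letters searched, on both strands, were GAGGAA for PU.1, TTGCNNAA for C/EBP, TGTGGT for RUNX1, AACNGT for MYB, AAATCA for GFI1, CCACCC for KLF4 and, for IRF8, a pair of GAAA runs set 2 bases apart. Capitals mark a match, and no matches overlapped. GFI1 lies on chromosome 1 (chr1:92486876-92487175, minus strand), CEBPB on chromosome 20 (chr20:50190333-50190632, plus strand) and CEBPE on chromosome 14 (chr14:23119206-23119505, minus strand).
GFI1: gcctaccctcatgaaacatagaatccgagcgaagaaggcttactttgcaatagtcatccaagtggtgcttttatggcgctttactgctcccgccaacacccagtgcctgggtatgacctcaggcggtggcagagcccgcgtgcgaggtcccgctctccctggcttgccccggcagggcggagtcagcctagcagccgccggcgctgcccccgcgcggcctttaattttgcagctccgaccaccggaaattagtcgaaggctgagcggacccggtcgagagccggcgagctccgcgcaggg
CEBPB: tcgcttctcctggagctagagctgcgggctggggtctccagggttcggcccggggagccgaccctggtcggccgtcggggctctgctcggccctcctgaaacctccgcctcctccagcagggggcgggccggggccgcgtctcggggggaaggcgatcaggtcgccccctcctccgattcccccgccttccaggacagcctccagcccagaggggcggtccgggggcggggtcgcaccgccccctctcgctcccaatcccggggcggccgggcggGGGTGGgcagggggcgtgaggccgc
CEBPE: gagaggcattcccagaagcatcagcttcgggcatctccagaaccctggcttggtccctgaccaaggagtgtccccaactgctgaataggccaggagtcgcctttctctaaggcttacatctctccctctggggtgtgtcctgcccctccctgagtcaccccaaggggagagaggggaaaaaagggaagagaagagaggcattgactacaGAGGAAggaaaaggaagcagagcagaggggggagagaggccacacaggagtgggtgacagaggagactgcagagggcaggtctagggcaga
The CEBPE window held the PU.1 letters once, with the first base at −41 from the start site, as 27.9% of 35116 RefSeq promoter windows hold them at least once. The CEBPB window held the KLF4 letters once, on the minus strand at 26, as 34.3% of windows hold them. The GFI1 window held none of the 7 motifs. The table holds 3 windows for GFI1, and the others, at start sites further downstream, held the C/EBP and RUNX1 letters in 1 and the KLF4 and PU.1 letters in the other. The further window of CEBPB overlaps the printed one. It held the same KLF4 letters on the minus strand, and the KLF4 letters at another site on the plus strand. Among all windows, the C/EBP letters occurred in 10.5%, the RUNX1 letters in 13.1%, the MYB letters in 21.7%, the GFI1 letters in 13.2% and the IRF8 letters in 3.57%. A match is a description of the letters only.

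The remaining 5 members were not called in any of the 13 comparisons. IRF8 encodes the interferon regulatory factor of monocyte and dendritic cell fate. Its signals without DOX were 12.85, 13.04, 12.78 and 12.71 in the NOD1 line, against 12.70, 12.67, 12.59 and 12.55 in the vector line. The groups did not overlap, as 11.1% of all genes did not in that direction. The difference of 0.21 (SE 0.0919) did not pass (adjusted p = 0.0964). Against the uninduced NLRP4 line IRF8 stood at 0.24 (adjusted p = 0.0559), and with DOX the NOD1 line stood at 0.10 and 0.07 from the vector and NLRP4 lines. KLF4 stood at 0.16 in the NOD1 minus vector comparison with DOX (adjusted p = 0.432) and at 0.35 without DOX (SE 0.133, adjusted p = 0.0555), with overlapping arrays in both. Its spread was wide, from 7.94 to 8.51 in the vector line without DOX alone. The call for KLF4 without DOX was made when vector_noDOX replicate 1 or 3 or NOD1_noDOX replicate 4 was left out (adjusted p = 0.0408, 0.0342 and 0.0147).

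CEBPA encodes C/EBPα, the factor required for the step to granulocyte and monocyte progenitors. Its group means ran from 9.18 to 9.38, and the NOD1 line stood at 0.12 above the vector line with DOX (adjusted p = 0.486) and at 0.20 without DOX (adjusted p = 0.188). With DOX its 4 arrays of the NOD1 line, at 9.40, 9.34, 9.34 and 9.41, all lay above the 4 of the vector line, at 9.33, 9.27, 9.21 and 9.19, as those of 15.5% of all genes did. RUNX1 encodes the runt-domain factor of definitive blood formation. Its group means ran from 11.21 to 11.49 without an order by line, and its differences between the NOD1 and vector lines were −0.01 with DOX and 0.23 without DOX (adjusted p = 0.956 and 0.193). The probe sets read transcripts as a whole, so the RUNX1 isoforms from its separate promoters, and the long and short C/EBPα proteins made from a single transcript, were not resolved.

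MYB encodes the progenitor factor that falls as myeloid cells mature. It varied least of the 10 members, with group means from 13.31 to 13.53 and an SD over the 24 arrays of 0.108. It was the member that stood lower in the NOD1 line in all 4 comparisons, at −0.02 and −0.12 against the vector line and −0.15 and −0.16 against the NLRP4 line, the first of each pair with DOX. None of these passed (adjusted p from 0.102 to 0.858). With DOX, the MYB signals of 13.32, 13.30, 13.26 and 13.37 in the NOD1 line lay below the 13.49, 13.42, 13.52 and 13.41 of the NLRP4 line, as happened for 12.2% of all genes. The NLRP4 line was the high group with DOX, at a mean of 13.46, against 13.34 in the vector line and 13.31 in the NOD1 line. Its difference of 0.13 from the vector line was not called (limma adjusted p = 0.881).

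The lines were also compared over both DOX states together, 8 arrays against 8, a comparison added after the results above were seen. SPI1 was 1.73-fold, GFI1 1.53-fold and CEBPD 1.34-fold higher in the NOD1 line than in the vector line (adjusted p = 3.68e-09, 4.66e-08 and 7.25e-06). CEBPB at 0.24, CEBPE at 0.27 and KLF4 at 0.26 on the log2 scale were called too (adjusted p = 0.00770, 0.00830 and 0.0347), where 36.3% of all genes were called in either direction. CEBPA at 0.16, IRF8 at 0.16, MYB at −0.07 and RUNX1 at 0.11 were not (adjusted p from 0.0646 to 0.370). Against the NLRP4 line SPI1, GFI1, CEBPD, CEBPB and KLF4 were called higher and MYB lower (log2 −0.15, SE 0.0501, adjusted p = 0.0168), while CEBPE at 0.15 was not called (adjusted p = 0.135). Calls in either direction made up 36.4% of all genes in that comparison. Between the NLRP4 and vector lines 0 of 10 members were called by limma, as were 0.0869% of all genes, and the member changes ran from −0.03 to 0.15. The highest was that of GFI1, with a 95% interval of 0.01 to 0.28. Within DOX states an unadjusted p under 0.05 was reached by GFI1 without DOX (4.96% of all genes) and by 0 members with DOX (6.11%).

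**Figure D2:**
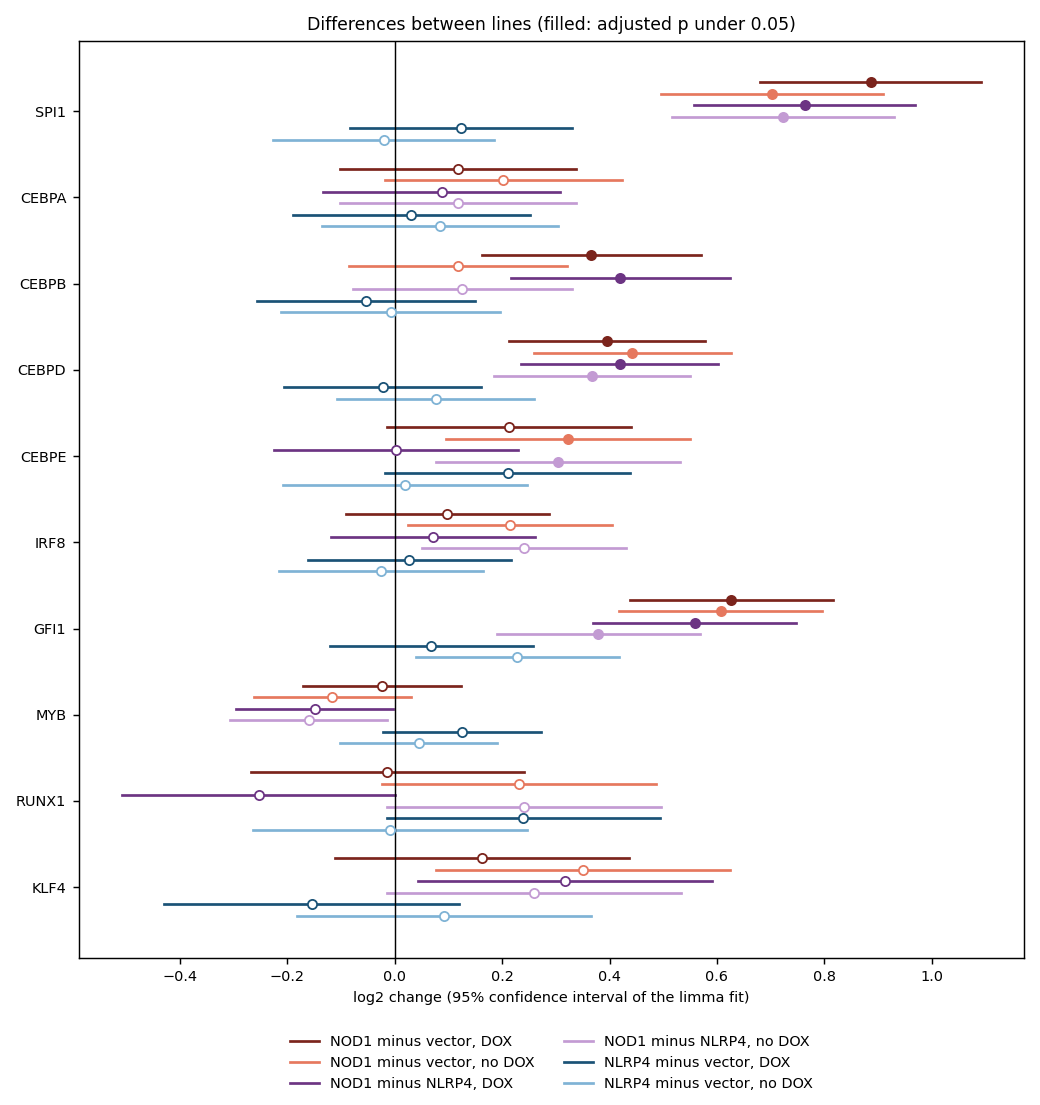
Log2 difference of each member between lines, with and without DOX, with its 95% confidence interval from the limma fit. Filled points have an adjusted p under 0.05, and all of them belong to comparisons of the NOD1 line with another line, from 0.30 for CEBPE to 0.89 for SPI1.

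DOX itself was compared with no DOX within each line. Limma called 0 of 10 members in the NOD1 line (0.0109% of all genes), in the NLRP4 line (0.0163%) and in the vector line (0% of genes). An unadjusted p under 0.05 was reached by 0 members in the NOD1 line, by CEBPE and RUNX1 in the NLRP4 line and by SPI1 and MYB in the vector line, against 5.77%, 8.05% and 3.38% of all genes. In the NOD1 line the member changes ran from −0.21 for RUNX1 to 0.17 for CEBPB, and no 95% interval reached below −0.47 or above 0.37. In the NLRP4 line they ran from −0.13 for KLF4 to 0.28 for RUNX1, with intervals within −0.41 and 0.54. In the vector line they ran from −0.26 for SPI1 to 0.11 for KLF4, with intervals within −0.47 and 0.39. Averaged over the 3 lines, SPI1 changed by −0.16 (SE 0.0576, adjusted p = 0.819) and MYB by −0.09 (SE 0.0409, adjusted p = 0.875), and 0 members were called (0.0271% of all genes). Both had an unadjusted p under 0.05, as 5.56% of all genes did.

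SPI1 was lower on average with DOX in each line, by −0.08 in the NOD1 line, −0.12 in the NLRP4 line and −0.26 in the vector line, without a call in any. RUNX1 differed most between lines in its DOX effect. Its signals were 11.32, 11.23, 11.20 and 11.20 with DOX and 11.81, 11.31, 11.48 and 11.20 without DOX in the NOD1 line. In the NLRP4 line they were 11.62, 11.43, 11.67 and 11.24 with DOX and 11.20, 11.37, 11.04 and 11.23 without DOX. The DOX effect in the NOD1 line minus that in the NLRP4 line was −0.49 (SE 0.174), which did not pass over all genes (adjusted p = 0.502). Among the members 0 were called for any of the 3 differences between DOX effects, in which 0.00543% to 0.0109% of all genes were called. An unadjusted p under 0.05 was reached by RUNX1 and CEBPB for the NOD1 minus NLRP4 difference (8.01% of all genes). It was reached by 0 members for the NOD1 minus vector difference (4.05%) and by 0 for the NLRP4 minus vector difference (4.92%).

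**Figure D3:**
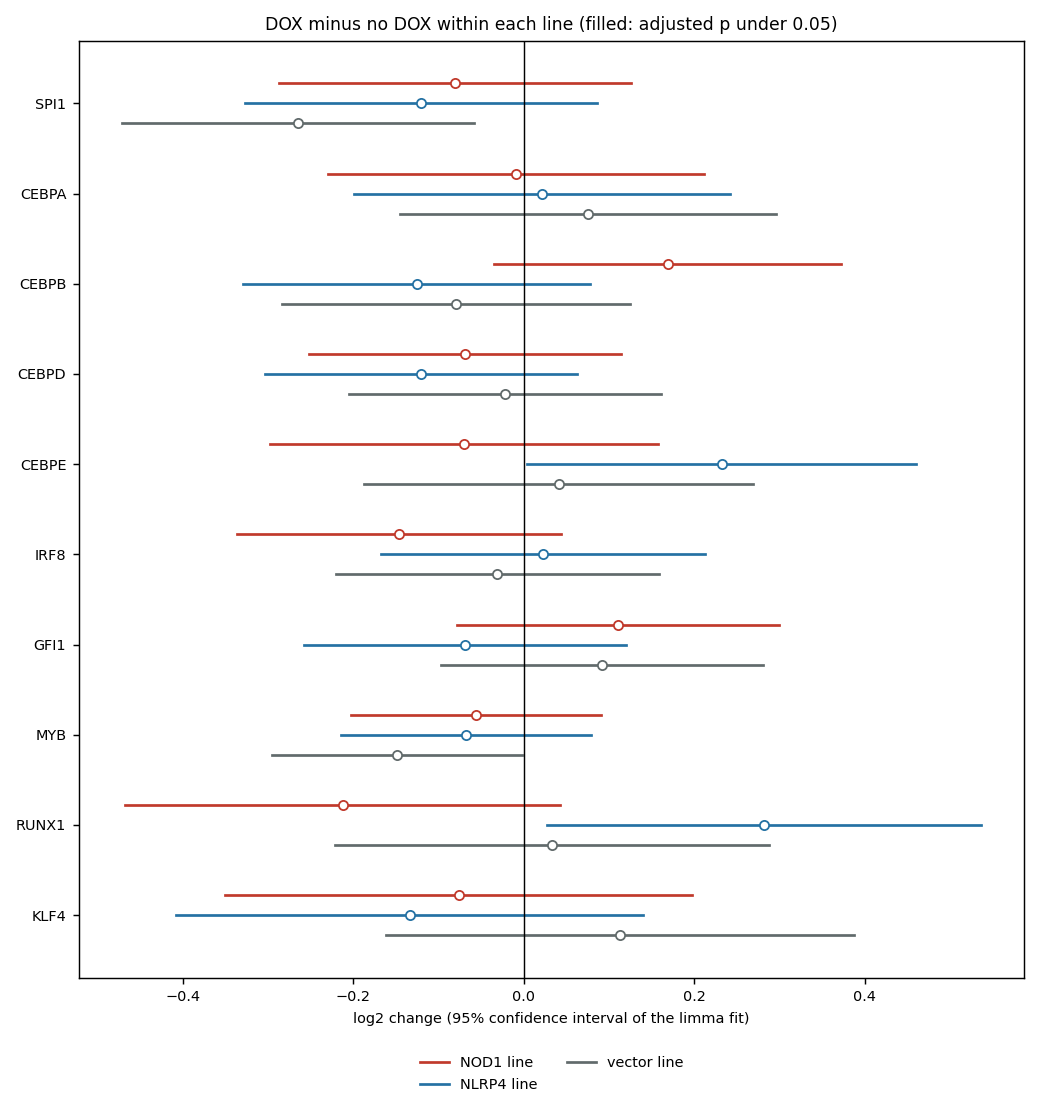
Log2 difference of each member between DOX and no DOX in the NOD1, NLRP4 and vector lines, with its 95% confidence interval from the limma fit. No point is filled, since none had an adjusted p under 0.05, and the values run from −0.26 for SPI1 in the vector line to 0.28 for RUNX1 in the NLRP4 line.

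The split by line differed among the members. Differences between lines held 85.8% of the sum of squares of SPI1 over the 24 arrays, 83.9% of that of GFI1 and 75.7% of that of CEBPD. For RUNX1 they held 7.40%, and for CEBPA 19.9%, where the spread within groups held 64.9% and 77.7%. Across the 24 arrays SPI1 and CEBPD correlated at 0.91, CEBPD and GFI1 at 0.80 and SPI1 and GFI1 at 0.80, the 3 highest of 45 pairs of members. These values rest largely on the shared difference between lines. Within groups, after the group means were removed, SPI1 and CEBPD correlated at 0.58, but SPI1 and GFI1 at −0.16 and CEBPD and GFI1 at 0.12.

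The genes most like each member were taken as the 3 with the highest Pearson correlation over the 24 arrays among all genes. For CEBPD the closest of all genes was SPI1, followed by BTF3L4 (r = 0.91) and CHTOP (r = 0.90). For SPI1 they were CHTOP (r = 0.96), DCPS (0.96) and KRTCAP2 (0.95), and for GFI1 they were SRPRA (0.91), GPBP1L1 (0.91) and ZNF622 (0.91). Within groups the 3 genes near GFI1 correlated with it at 0.25 to 0.38, against 0.69 to 0.85 for the 3 near SPI1. For CEBPB the closest were S100A12, a calgranulin gene (r = 0.83), MT1E, a metallothionein gene (0.83), and COPG1 (0.82). The closest to IRF8 was GALNS (0.84), to RUNX1 KRTAP10-1 (0.83), to MYB PTPN11 (0.79), to CEBPE MYPOP (0.78), to KLF4 ORAI1 (0.78) and to CEBPA CHD7 (0.77). Arrays share brightness and plate order, so these are descriptions.

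Genes that PU.1, the C/EBP proteins and IRF8 are known to drive in monocytes and granulocytes were followed next, in a list of 36 of which 31 were measured, SPI1 itself among them. This list and those below were chosen with earlier results of these data known, so their counts are descriptions and not independent tests. In the NOD1 line against the vector line with DOX, 17 were higher and 2 lower, where 13.6% of all genes were higher and 25.8% called in either direction, with a median of 0.42 against 0.02 for all genes. Without DOX, 19 were higher and 2 lower, where 13.0% of all genes were higher and 24.9% called in either direction, again with a median of 0.42, against 0.03 for all genes. Against the NLRP4 line 15 were higher and 1 lower with DOX, where 13.4% of all genes were higher and 25.4% called in either direction. Without DOX 18 were higher and 2 lower against that line, where 14.1% of all genes were higher and 27.0% called in either direction. Between the NLRP4 and vector lines 0 of the 31 were called with DOX (0.0380% of all genes) or without DOX (0.0163%).

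CD68, a lysosomal glycoprotein of macrophages, was 2.26-fold higher in the NOD1 line than in the vector line with DOX (log2 1.18, SE 0.129, adjusted p = 3.64e-07) and 2.28-fold higher without DOX (1.19, adjusted p = 3.20e-07). Among azurophil granule genes, AZU1 stood at 0.83 with DOX and 0.87 without DOX (adjusted p = 5.09e-06 and 3.13e-06) and PRTN3, a serine protease, at 0.78 over the uninduced NLRP4 line (adjusted p = 2.59e-06). The protease gene CTSG stood at 0.42 over the vector line with DOX (adjusted p = 4.02e-06). The NLRP4 line lay between, with means of 15.08 in the NOD1 line, 14.92 in the NLRP4 line and 14.66 in the vector line with DOX. Without DOX these were 15.02, 14.87 and 14.65. TLR4, the endotoxin receptor, went the other way, at −0.97 with DOX and −1.12 without DOX against the vector line (adjusted p without DOX = 8.30e-06). FCER1G stood at 0.56 (adjusted p = 4.10e-05) and CYBB, the catalytic subunit of the phagocyte oxidase, at 1.34 (SE 0.264, adjusted p = 0.000429) in the NOD1 minus NLRP4 comparison with DOX. Against the vector line CYBB was at 0.61 with DOX and 0.66 without DOX and was not called.

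**Figure D4:**
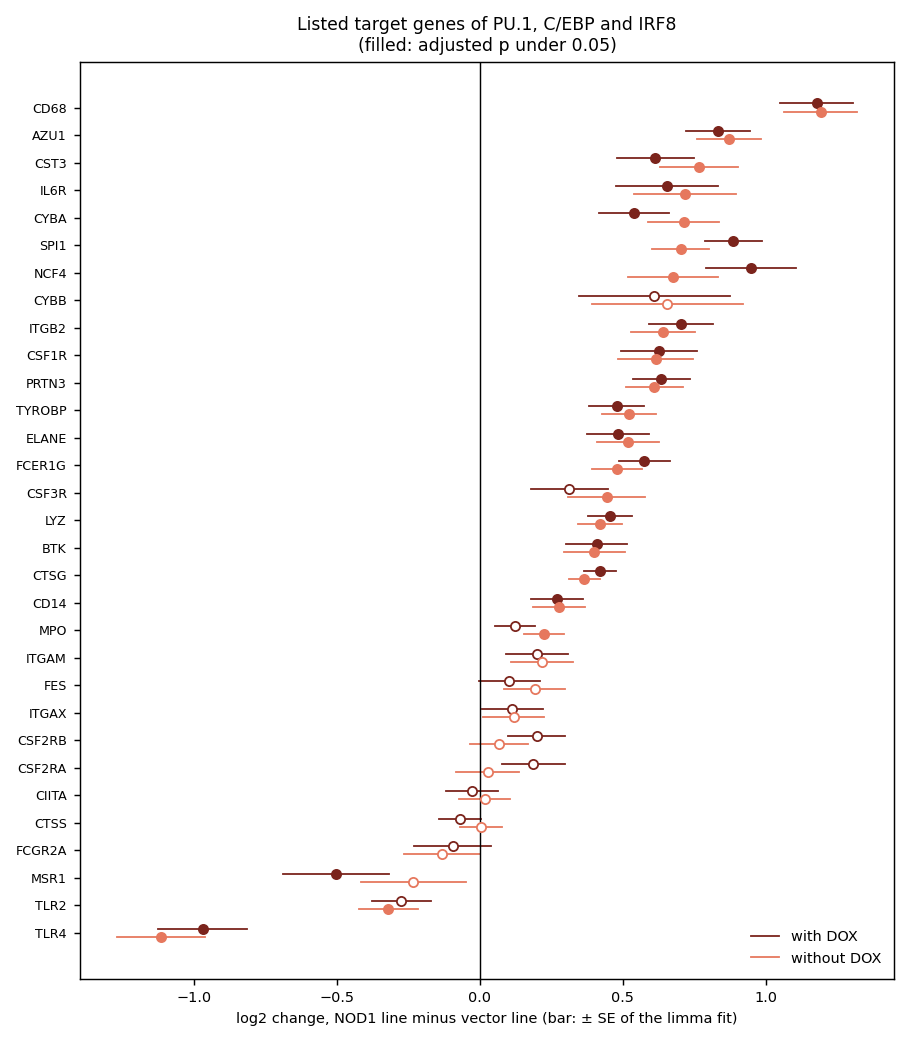
Log2 difference between the NOD1 line and the vector line for the 31 measured target genes of PU.1, C/EBP and IRF8, with DOX and without DOX, each with its SE from the limma fit. Filled points have an adjusted p under 0.05, and CD68 at 1.18 with DOX and 1.19 without DOX and TLR4 at −0.97 and −1.12 stand at the ends.

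Of 10 measured secondary granule genes, which C/EBPε drives, 1 was higher in the NOD1 line than in the vector line with DOX and 1 without DOX, and 0 were lower. This is near the 13.6% and 13.0% of all genes called higher. That gene was CHI3L1, a chitinase-like protein that macrophages make too, at 1.41 with DOX and 1.49 without DOX (adjusted p = 2.16e-08 and 1.05e-08). Against the NLRP4 line 1 was higher with DOX and 3 without DOX, where 13.4% and 14.1% of all genes were called higher. These were CHI3L1 in both, and CAMP at 0.30 (adjusted p = 0.0290) and MMP9 at 0.24 (adjusted p = 0.0205) without DOX. LTF, the lactoferrin gene, stood at −0.11 with DOX and 0.14 without DOX against the vector line and was not called.

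Of 14 genes known as MYB targets, 6 were higher and 3 lower in the NOD1 line than in the vector line with DOX, and 6 were higher and 2 lower without DOX, where 25.8% and 24.9% of all genes were called. The list holds CEBPB, itself a member, and shares other genes with the other lists, so the counts of the lists are not separate. KIT, the stem cell factor receptor gene, was 2.37-fold higher with DOX (log2 1.24, adjusted p = 2.96e-07) and 3.70-fold higher without DOX (1.89, adjusted p = 7.64e-10). FLT3, another growth factor receptor gene, stood at 0.56 with DOX and 0.72 without DOX (adjusted p = 9.57e-05 and 5.03e-06). It was also the gene of this list called between the uninduced NLRP4 and vector lines, at 0.56 (SE 0.0955, adjusted p = 0.0435). CDK6, a G1 kinase, stood at −1.07 with DOX and −0.88 without DOX (adjusted p = 4.57e-07 and 5.58e-06), and CCNA1, a cyclin, at −0.86 without DOX (adjusted p = 7.18e-05). BCL2, the survival gene, stood at −0.49 with DOX (adjusted p = 0.000164).

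Of 30 measured partners and antagonists of the 10 factors, 5 were higher and 2 lower in the NOD1 line than in the vector line with DOX, and 7 were higher and 3 lower without DOX. Of all genes, 25.8% were called with DOX and 24.9% without DOX, so the count with DOX is near the background. DDIT3, a stress-induced C/EBP relative, stood at 0.99 with DOX and 0.89 without DOX (adjusted p = 3.94e-05 and 0.000140). JUN, a coactivator of PU.1, stood at 0.55 with DOX and 0.66 without DOX (adjusted p = 0.000288 and 3.84e-05). CREBBP, a histone acetyltransferase, stood at 0.46 without DOX (adjusted p = 0.00118), and KDM1A, the demethylase that GFI1 recruits, at 0.35 with DOX (adjusted p = 0.000639). CEBPZ, which shares the name but not the basic zipper of the family, was lower, at −0.74 with DOX and −0.91 without DOX (adjusted p = 2.59e-05 and 2.07e-06). ZEB2, a repressor in monocytes and dendritic cells, stood at −0.39 against the uninduced NLRP4 line (adjusted p = 0.000454).

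Among 22 measured progenitor and leukaemia transcription factors, 6 were higher and 5 lower in the NOD1 line than in the vector line with DOX, and 8 were higher and 2 lower without DOX, where 25.8% and 24.9% of all genes were called. Related genes of the MEF2 family moved in opposite directions. MEF2D stood at 0.83 with DOX and 0.88 without DOX (adjusted p = 7.63e-06 and 4.08e-06), and MEF2C at −0.78 with DOX and −0.76 without DOX (adjusted p = 1.17e-07 and 1.70e-07). NFE2 stood at 0.71 and BCL11A at 0.44 without DOX (adjusted p = 0.000221 and 0.000631). MEIS1, the partner of HOXA9 in KMT2A-rearranged leukaemia, stood at −0.41 and its relative PBX3 at −0.45 with DOX (adjusted p = 0.000682 and 0.00224). Without DOX, PBX3 averaged 12.25 in the NOD1 line, 12.39 in the vector line and 12.20 in the NLRP4 line. RUNX2, a relative of RUNX1, stood at −0.66 in the NOD1 minus NLRP4 comparison with DOX (adjusted p = 0.000252).

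Of 18 measured markers of other lineages, 1 was higher and 2 lower in the NOD1 line than in the vector line with DOX, and 1 was higher and 1 lower without DOX, where 25.8% and 24.9% of all genes were called. EPCAM, an epithelial adhesion gene, stood at 6.94 in the NOD1 line with DOX and 8.77 in the vector line with DOX, a difference of −1.83 (SE 0.416, adjusted p = 0.00162), and at −1.89 without DOX (adjusted p = 0.00129). NKG7 stood at 0.33 with DOX and 0.38 without DOX (adjusted p = 0.0166 and 0.00642), and KRT8 at −0.36 with DOX (adjusted p = 0.0319). With DOX, KRT8 averaged 8.31 in the NOD1 line, 8.34 in the NLRP4 line and 8.67 in the vector line. Without DOX these means were 8.28, 8.23 and 8.30, so the vector line with DOX was the group that stood apart. The list median was −0.05 with DOX and −0.02 without DOX. The part of other cell types in the differences of the 10 members was not tested.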

How the data were processed

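RNA of 24 wells was hybridised to Affymetrix arrays. Each deposited value is a log2 signal of 1 probe set; RMA and the oligo package were used, per the submitters' processing notes, while versions and genome build were not given in the sources used here. Deposited array medians over genes ran from 8.25 to 9.03, so the gene table was quantile normalized between arrays. Of 33297 probe sets, 19460 had 1 gene symbol, 1754 several and 12083 were unnamed; symbols were updated through Entrez IDs with RefSeq (GRCh38.p14, 19429 matched). The probe set with the highest mean stood for its gene, leaving 18417 genes.

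A model of 6 group means was fitted to the 24 arrays with limma 3.58.1 under R 4.3.3 (18 residual degrees of freedom, eBayes) and adjusted over all genes by Benjamini-Hochberg. SEs and intervals are limma's. The 13 comparisons were DOX within lines and averaged, differences between DOX effects, and lines within DOX states. The fit was tested on simulated data. Alternatives were other scalings, array weights, a covariate, a filter on dim genes, a robust prior, fits to the arrays compared alone and omission of arrays. No label says whether wells came from separate cultures or transductions, so p-values measure the spread between wells, which may be technical. The series' design text says that cells were plated in an assigned order without randomization, and the array numbers of each line form a block, so line and that numbering cannot be told apart. Within each line the arrays without DOX come first and those with DOX follow. DOX and the numbering within a line cannot be told apart either.

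Members and gene lists were chosen with earlier results of these data known. Named were all members, NOD1 and NLRP4, up to 4 called genes with the lowest p per list and comparison between lines, and 3 genes per member by correlation. LTF, CYBB against the vector line, TLR4 and EPCAM with DOX and LYZ, FCER1G, TYROBP, AZU1, CSF1R, MPO, CD3E, MS4A1, NKG7 and COL1A1 as markers are given beside them. Group means of CTSG, KRT8 and PBX3 are given too.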

Additional observations from a re-analysis of the deposited data

Results flagged for a closer look

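Each member was checked in each group of 4 arrays, 60 groups in all, for an array far from the other 3; by chance about 1 in 20 groups would show one. CEBPA in the NOD1 line without DOX was the one found. Replicate 1 stood at 9.71, the next array at 9.31 and the lowest at 9.24, so the gap was 0.846 of the group's range. The same array held the highest signal of its group for CEBPB (8.95), RUNX1 (11.81), KLF4 (8.99) and MYB (13.55) and the lowest for SPI1 (10.16), CEBPD (9.35) and GFI1 (9.54), and lay between for CEBPE and IRF8. No DOX effect on a member differed between lines at an adjusted p under 0.05 in limma.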

How the results depend on the processing

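No paired analysis was possible because the labels number the arrays consecutively and no number is shared between groups. The number of members called in the DOX-treated NOD1 against NLRP4 comparison was 2 in the values as deposited, against 4. Leaving out each array in turn gave 3 to 5 members in both uninduced comparisons of the NOD1 line, 4 to 4 in both DOX-treated ones and 0 in all others. Of 4280 recomputed member values 4240 kept their call, 23 lost it, 17 gained one and 0 called values changed sign. SPI1 and GFI1 kept theirs in all 4 comparisons of the NOD1 line under all 24 omissions and 9 other settings, with SPI1 at 0.63 to 0.97 and GFI1 at 0.32 to 0.75 on the log2 scale. CEBPD lost one, in the values as deposited. CEBPE lost both calls with array weights (0.28 for both, adjusted p = 0.109 and 0.0977), with a covariate for array median (0.30 and 0.27, adjusted p = 0.0558 and 0.0931) and in 5 omissions against the vector line and 7 against the NLRP4 line, where it ran from 0.26 to 0.33. Genes not called in the NOD1 line became so under some settings: IRF8 and MYB against the uninduced NLRP4 line with a covariate for array median (0.26 and −0.20) or a robust prior with trend (0.24 and −0.16), and KLF4 against the vector line without dim genes (0.35, adjusted p = 0.0444) and against the DOX-treated NLRP4 line with the arrays compared alone (0.32, adjusted p = 0.0443). KLF4 was also called against the DOX-treated NLRP4 line with the covariate for array median (0.41, adjusted p = 0.0270). Without dim genes IRF8 was called against the uninduced NLRP4 line (0.24, adjusted p = 0.0437). The causes were not tested. In the values as deposited the median gene shifted by 0.26 with DOX in the NLRP4 line and by −0.21 and 0.12 in the NOD1 minus NLRP4 comparisons with and without DOX. Counts over all genes in the comparisons with few calls ran from 0 to 18 over the settings (18 with array weights for the DOX-treated NLRP4 against vector lines, against 7), and from 3287 to 5427 in the 4 of the NOD1 line.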
